A study of Mus musculus with 4 samples.

Results

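The 6 genes described here encode the mouse receptors for the constant (Fc) part of IgG and their shared signalling chain: Fcgr1, Fcgr2b, Fcgr3, Fcgr4, Fcer1g and Fcgrt. They were taken by symbol from the gene list of the data, as 6 of 27998 genes, and each had UMIs (unique molecular identifiers, counts of captured transcripts) in every library. The transcripts were counted in CD45+ cells selected from B16-F10 melanoma tumours grown in C57BL/6 mice. In the Adar1-null group the tumour cells lacked Adar1, an enzyme that edits double-stranded RNA, and in the control group they did not. The hosts of both groups were the same strain, every tumour was implanted with matrigel, and tumours were taken on day 14. Each group had 2 libraries. The Adar1-null libraries are called S1 and S2 here, and the controls S3 and S4. Nothing in the labels tells whether a group's libraries stem from different mice. The p-values therefore reflect library-to-library spread, which may be technical. They do not say how the Adar1-null line was made or whether it is a single clone.

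Fc gamma receptors let myeloid and natural killer (NK) cells respond to antibody-coated targets. Fcgr1, the receptor with high affinity for IgG, and the lower-affinity receptors Fcgr3 and Fcgr4 are activating, and each signals through Fcer1g, a small chain whose ITAM motif recruits the kinase Syk. Fcgr2b carries an inhibitory ITIM motif in its own tail and recruits the phosphatase Inpp5d, so the balance between Fcgr2b and the activating receptors sets how strongly a cell answers immune complexes. Fcgrt, the neonatal Fc receptor, has another role: with the light chain B2m it binds IgG and albumin in acidic endosomes and returns them to the cell surface. In tumours, macrophages are the main cells that kill or engulf antibody-coated tumour cells through the activating receptors, and in mice NK cells do so through Fcgr3.

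Fcgr2b, Fcgr4, Fcgr3 and Fcer1g lie together on chromosome 1 of the mouse genome. The positions are from GENCODE vM21 on GRCm38, the assembly also called mm10. Fcgr2b (ENSMUSG00000026656) spans chr1:170958617-170976547 on the minus strand, Fcgr4 (ENSMUSG00000059089) chr1:171018920-171029761 on the plus strand, Fcgr3 (ENSMUSG00000059498) chr1:171051174-171064935 on the minus strand and Fcer1g (ENSMUSG00000058715) chr1:171229572-171234365 on the minus strand. The 4 genes fall within 275749 bases that hold 11 protein-coding genes. Fcgr1 (ENSMUSG00000015947) is at chr3:96282909-96293969 and Fcgrt (ENSMUSG00000003420) at chr7:45092990-45103851, both on the minus strand. All 6 are annotated as protein-coding. The last 500 bases of their transcripts, where 3′ libraries collect reads, were cut into windows of 98 bases. Of these, 0 were found unchanged in another gene for any of the 6. Windows with a few mismatches were not checked, so this does not show that every read can be told apart from the related receptors.

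The promoters of Fcgr1, Fcgr4 and Fcgrt are shown because these 3 genes differed between monocyte-like and macrophage-like cells. Each sequence is the 250 bases before a transcript start in RefSeq on GRCm38.p6, read 5′ to 3′ in the direction of the gene. The windows lie at chr3:96293970-96294219 for Fcgr1, chr1:171018676-171018925 for Fcgr4 and chr7:45103823-45104072 for Fcgrt. Capitals mark matches on either strand to 2 motifs: GAGGAA, the core bound by the myeloid factor PU.1, and GAAA repeated after 2 bases, the paired repeat bound by interferon regulatory factors.
Fcgr1: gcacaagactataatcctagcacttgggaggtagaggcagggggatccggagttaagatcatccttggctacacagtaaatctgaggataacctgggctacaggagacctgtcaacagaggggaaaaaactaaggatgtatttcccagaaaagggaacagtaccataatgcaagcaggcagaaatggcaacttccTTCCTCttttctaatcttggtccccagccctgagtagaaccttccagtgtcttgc
Fcgr4: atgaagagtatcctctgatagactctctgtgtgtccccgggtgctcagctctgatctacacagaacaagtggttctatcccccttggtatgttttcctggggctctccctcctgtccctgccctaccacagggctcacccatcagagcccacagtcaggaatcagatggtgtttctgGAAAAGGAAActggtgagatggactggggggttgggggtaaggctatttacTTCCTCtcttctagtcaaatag
Fcgrt: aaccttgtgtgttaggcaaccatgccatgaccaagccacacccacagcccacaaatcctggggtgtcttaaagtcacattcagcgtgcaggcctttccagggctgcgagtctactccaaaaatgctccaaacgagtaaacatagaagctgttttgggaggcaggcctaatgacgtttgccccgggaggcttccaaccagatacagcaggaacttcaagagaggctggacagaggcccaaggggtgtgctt
Fcgr1 had the PU.1 core on the other strand, 55 bases before its start. Fcgr4 had the paired repeat 73 bases before its start and the PU.1 core, on the other strand, 22 bases before it. Fcgr3 had the PU.1 core on the other strand, 6 bases before the first of its starts. The windows of Fcgrt, Fcgr2b and Fcer1g held none of these letters. Of 32851 promoters of the same length, 23.3% held the PU.1 core and 2.98% the paired repeat. A match describes the letters of the window and does not show that a factor binds there.

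The 4 libraries held 1972 to 2847 barcodes and 23850251 to 33636018 UMIs, and 8569 of 8838 barcodes were kept. Cells were sorted into types by the level of marker lists that hold none of the 6 genes. The gate gave 3645 macrophage-like, 555 monocyte-like, 299 cells with both the monocyte and the macrophage programme, 128 cDC1-like, 203 cDC2-like, 107 migratory dendritic-like (DC-like), 95 NK-like, 1278 T-like and 1212 melanoma-like cells. The melanoma-like cells passed the CD45 selection, and Adar was at 9.42, 12.9, 11.4 and 13.01 CPM (UMIs per 1000000 UMIs of the summed cells) in them in S1, S2, S3 and S4. Counts of 3′ ends do not check an edit elsewhere in the gene. The gate's cut-offs were set after seeing the scores, and 216 cells lay within 0.1 of the monocyte cut-off and 238 within 0.1 of the macrophage one, so the classes are ranges of a score. Within the macrophage-like class the libraries held different cells: the cluster with most of them was 1 (led by Vcam1 and Lpl) in S1 and S3, 4 (Ly6i and Ms4a4c) in S2 and 3 (Cd209f and Folr2) in S4. Barcode sequences were shared by 2 libraries in 38 cases and by more in 0.

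Fcgr1 transcripts, for the high-affinity IgG receptor, were concentrated in the monocyte and macrophage classes and were lower in macrophage-like than in monocyte-like cells. In monocyte-like cells Fcgr1 was at 708, 991, 735 and 581 CPM in S1, S2, S3 and S4, and in macrophage-like cells at 394, 642, 460 and 350 CPM. Every library was higher in its monocyte-like than in its macrophage-like cells, although the ranges over libraries overlapped. The ratio of macrophage-like to monocyte-like cells was 0.608 (log2 change -0.72 ± 0.11 SE, adjusted p = 1.39e-05, edgeR quasi-likelihood with library as a covariate). Cells with both programmes gave 840, 1301, 1282 and 821 CPM, above the monocyte-like cells of the same library in 4 of 4 libraries. cDC2-like cells were at 141 ± 58.3 CPM (SD, n = 4 libraries), and every library lay below every macrophage-like value.

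**Figure D1:**
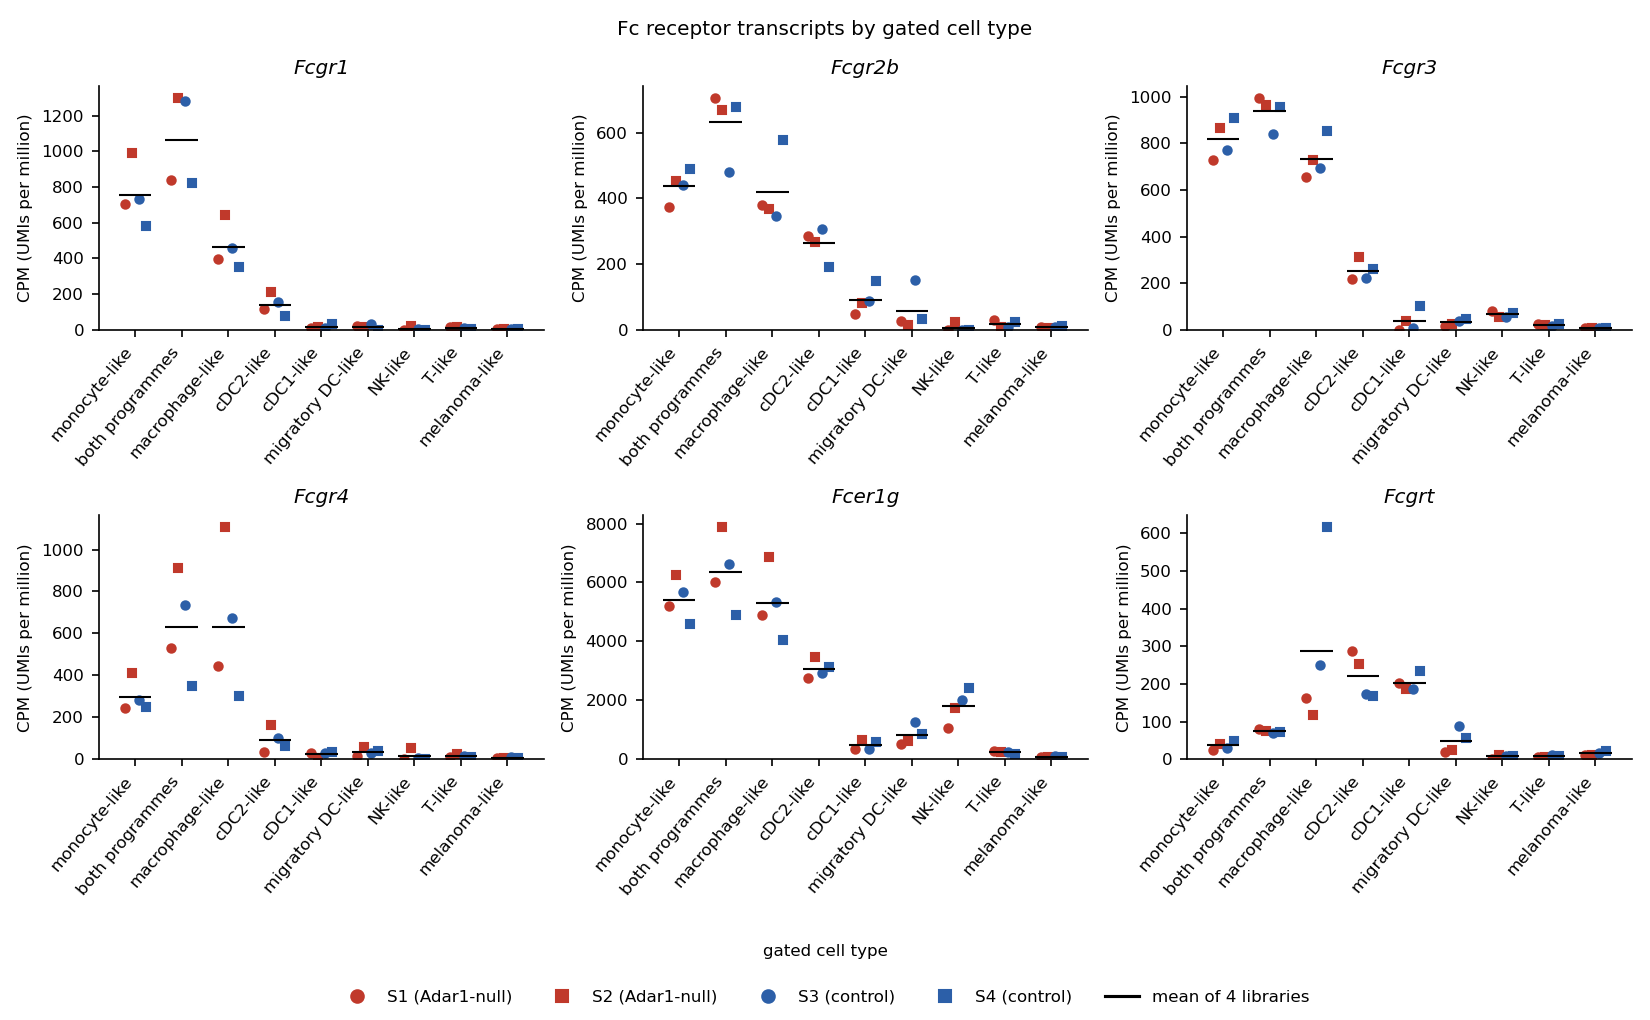
Level of each Fc receptor gene by gated cell type, in CPM of the summed UMIs on a linear vertical axis that differs between panels. Each point is a library (red Adar1-null, blue control) and the line is the mean of 4 libraries; the 4 Fc gamma receptor genes sit in the 3 monocyte and macrophage classes and in cDC2-like cells, Fcer1g also in NK-like cells, and Fcgrt in macrophage-like, cDC2-like and cDC1-like cells.

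Over the 6 pairs of monocyte-like, macrophage-like, dendritic-like and NK-like cells, the members were called in most contrasts, as were many other genes. Between macrophage-like and monocyte-like cells 3 of 6 members were called (adjusted p under 0.05), against 38.8% of the 7205 genes tested. Dendritic-like cells here pool the cDC1-like, cDC2-like and migratory DC-like cells. Between dendritic-like and monocyte-like cells 6 of 6 were called (36.4% of genes), and between dendritic-like and macrophage-like cells 5 of 6 (48.2%). Between NK-like and monocyte-like cells 5 of 6 were called (43.3%), between NK-like and macrophage-like cells 6 of 6 (43.9%) and between NK-like and dendritic-like cells 5 of 6 (32.2%). The contrasts share their libraries and cell sums, so they are not independent of each other.

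Fcgr3, which pairs with Fcer1g and responds to immune complexes, was high in both monocyte-like and macrophage-like cells. It was at 726, 865, 771 and 907 CPM in the monocyte-like cells of S1, S2, S3 and S4 and at 653, 729, 693 and 854 CPM in their macrophage-like cells. The groups of values overlapped, and the difference was not called (log2 change -0.16 ± 0.11, adjusted p = 0.253). In cDC2-like cells Fcgr3 was at 216, 311, 223 and 263 CPM, below every monocyte-like and macrophage-like value. Over all dendritic-like cells it was lower than in macrophage-like cells by -2.49 ± 0.12 on the log2 scale (adjusted p = 9.58e-16).

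NK-like cells carried Fcgr3 at a low level. They gave 82.1, 56.8, 55.5 and 74.3 CPM in S1, S2, S3 and S4, from 43 UMIs in 95 cells. T-like cells, which are not known to use Fcgr3, gave 23.5, 20.2, 15.4 and 26.0 CPM, so every NK-like library lay above every T-like library. That separation did not hold by cluster. Cluster 11, with 91 NK-like and 35 T-like cells among others, gave 16.6, 21.0, 55.7 and 64.4 CPM in S1, S2, S3 and S4. Its S1 and S2 values lay within the T-like range. Per UMI of C1qa, an abundant macrophage transcript that free RNA would carry along, NK-like cells held 1.79 Fcgr3 UMIs, T-like cells 0.414 and macrophage-like cells 0.165. C1qa was itself a macrophage marker of the gate, which partly fixed the low ratio in macrophage-like cells. Monocyte-like cells held Fcgr3 too, so the ratio does not tell a cell's own transcripts from free RNA. The level in NK-like cells was lower than in macrophage-like cells by -3.66 ± 0.17 (adjusted p = 1.12e-15) and than in dendritic-like cells by -1.18 ± 0.20 (adjusted p = 3.53e-05). With clusters in place of the gate these differences were -4.31 and -1.85. Of the 70 Fcgr UMIs in NK-like cells, 43 were Fcgr3, 14 Fcgr4, 7 Fcgr1 and 6 Fcgr2b. Of the 14 Fcgr4 UMIs 13 came from S2, and the call of lower Fcgr4 in NK-like than in dendritic-like cells (-1.82 ± 0.56, adjusted p = 0.0233) was lost without S3 (-1.28, adjusted p = 0.141). It was also lost with a stricter gate (-1.36, adjusted p = 0.256). Without S2 that difference was -4.60 (adjusted p = 0.00036), a fitted value that rests on the 1 UMI left in NK-like cells.

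Fcgr4, the activating receptor restricted to myeloid cells, was higher in macrophage-like than in monocyte-like cells. It was at 242, 412, 282 and 250 CPM in monocyte-like and 446, 1108, 674 and 300 CPM in macrophage-like cells of S1, S2, S3 and S4. Each library was higher in its macrophage-like cells, by a fitted ratio of 1.97 (log2 change 0.98 ± 0.21, adjusted p = 0.00229). Among macrophage-like cells S2 was the highest library and S4 the lowest, and the spread was wide (632 ± 353 CPM, SD, n = 4). cDC2-like cells gave 33.7, 161, 102 and 64.2 CPM, and the other dendritic-like classes had means of 25.5 CPM (cDC1-like) and 36.2 CPM (migratory DC-like). T-like cells were at 14.6 ± 6.71 CPM.

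Fcgr2b, the inhibitory receptor, had the smallest fitted drop of the 4 Fcgr genes from macrophage-like to dendritic-like cells. It was at 374, 454, 440 and 488 CPM in monocyte-like and 381, 368, 346 and 577 CPM in macrophage-like cells of S1, S2, S3 and S4, with no difference called between them (log2 change -0.08 ± 0.18, adjusted p = 0.742). In cDC2-like cells Fcgr2b was at 287, 268, 307 and 193 CPM. In cDC1-like cells it was at 47.6, 80.9, 87.1 and 149 CPM, above the T-like level of 17.5 ± 9.76 CPM in every library. The change from macrophage-like to dendritic-like cells was -1.33 ± 0.19 (adjusted p = 1.23e-05). In the same contrast it was -2.67 ± 0.13 for Fcgr1 (adjusted p = 3.34e-15) and -3.41 ± 0.25 for Fcgr4 (adjusted p = 4.27e-08); the differences between these changes were not tested. NK-like cells held 6 Fcgr2b UMIs, all in S2, a level of 24.3 CPM there. That lay within the T-like range over libraries of 9.22 to 28.6 CPM but above the 9.33 CPM of the T-like cells of S2. Cluster 11 held 1 Fcgr2b UMI in S2.

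Fcgr2b also made up a larger part of the Fcgr transcripts in dendritic-like cells. Its share of the UMIs of Fcgr1, Fcgr2b, Fcgr3 and Fcgr4 was 43.5%, 30.4%, 43.6% and 38.5% in the dendritic-like cells of S1, S2, S3 and S4. Monocyte-like cells gave 18.2%, 16.7%, 19.7% and 21.9%, and macrophage-like cells 20.3%, 12.9%, 15.9% and 27.7%. Every dendritic-like value lay above every value of both other types. The dendritic-like shares rest on 278 to 433 UMIs a library, with exact binomial 95% intervals of 37.6% to 49.6% in S1 and 25.8% to 35.3% in S2 that cover counting error only.

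Fcer1g, the signalling chain, was the member found in the widest range of cells. Monocyte-like cells gave 5202, 6239, 5660 and 4579 CPM and macrophage-like cells 4885, 6880, 5353 and 4056 CPM in S1, S2, S3 and S4. The difference was not called (log2 change -0.05 ± 0.17, adjusted p = 0.860). cDC2-like cells were at 3066 ± 310 CPM, plasmacytoid dendritic-like cells (33 cells) at 2060 ± 480 CPM and NK-like cells at 1053, 1740, 2016 and 2415 CPM. cDC1-like cells gave 484 ± 150 CPM, and all 4 of their values lay above the highest T-like value of 276 CPM. NK-like and dendritic-like cells differed by -0.00 ± 0.18 on the log2 scale (adjusted p = 0.996), and both were lower than macrophage-like cells, by -1.67 ± 0.19 and -1.67 ± 0.18 (adjusted p = 1.31e-06 and 6.74e-07). The sign of the difference between NK-like and dendritic-like cells turned under other scalings, and its values are given with the alternatives. Per C1qa UMI, a ratio with the limits given for Fcgr3, NK-like cells held 54.6 Fcer1g UMIs and T-like cells 4.56. Melanoma-like cells held 2.04 and macrophage-like cells 1.09.

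Fcgrt had a pattern unlike the other 5 genes. It was low in monocyte-like cells, at 23.7, 41.6, 30.9 and 49.6 CPM in S1, S2, S3 and S4, and stood at 162, 117, 250 and 617 CPM in macrophage-like cells. The ranges did not overlap, and the ratio was 6.62 (log2 change 2.73 ± 0.40, adjusted p = 0.00036). Without the macrophage-like cells of clusters 3 and 10, described further on, the log2 change was 1.70 (adjusted p = 1.65e-09). cDC1-like cells, in which the Fcgr genes were low, gave 204, 185, 187 and 234 CPM of Fcgrt, and cDC2-like cells 287, 254, 174 and 168 CPM. Dendritic-like cells were 5.03 times the monocyte-like level (2.33 ± 0.42, adjusted p = 0.00151). Against macrophage-like cells they were not called (-0.40 ± 0.32, adjusted p = 0.344), and that direction depended on the macrophages included. Without the macrophage-like cells of clusters 3 and 10 the difference was 0.60 (adjusted p = 0.00018), without S4 it was 0.05, and without S2 it was -0.73 (adjusted p = 0.0325). NK-like cells were at 7.21 ± 5.19 CPM and T-like cells at 8.42 ± 2.02 CPM.

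In the order of mean levels over 9 types, neighbours could be told apart in only part of the list. For Fcgr1 the order was cells with both programmes, monocyte-like, macrophage-like, cDC2-like and cDC1-like cells, and only the steps from macrophage-like to cDC2-like and from cDC2-like to cDC1-like had separate ranges. Fcgr2b had its separate steps at the same 2 places. The ranges of Fcgr3 were separate from macrophage-like to cDC2-like, from cDC2-like to NK-like and from T-like to melanoma-like cells, and those of Fcgr4 only from monocyte-like to cDC2-like cells. Fcer1g separated macrophage-like, cDC2-like and NK-like cells in turn, then cDC1-like, T-like and melanoma-like cells. For Fcgrt the top 3 types (macrophage-like, cDC2-like and cDC1-like) overlapped, and the next type, cells with both programmes at 74.1 ± 3.86 CPM, lay below all cDC1-like values.

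Detection of the members was then counted cell by cell. Each cell was thinned to 3900 UMIs, since the median depth ran from 5051 UMIs in monocyte-like to 32860.5 in melanoma-like cells. A UMI of Fcgr3 was then found in 89.2% of monocyte-like and 89.2% of macrophage-like cells (92.4% and 96.8% before thinning). Fcgr1 was found in 78.6% and 66.9% (83.1% and 83.2% before thinning), and Fcgr4 in 51.5% and 63.9% (58.7% and 77.4%). Fcgr2b was found in 70.3% and 69.7% (76.6% and 83.0%), and Fcgrt in 11.9% and 48.4% (15.5% and 64.7%). T-like cells, used as the background, had shares of 2.43% (Fcgrt) to 5.71% (Fcgr3) at a median depth of 8710 UMIs, and 33.4% for Fcer1g. Melanoma-like cells had 1.32% to 6.19%, and 24.3% for Fcer1g. These shares were used as the background for Fcer1g, and 97.9% of NK-like and 77.3% of cDC1-like cells held a UMI of it. T-like cells may not be a pure background for Fcer1g. They held 4.56 Fcer1g UMIs per C1qa UMI, and 35 of them lay in cluster 11. The ratio was 2.04 in melanoma-like and 1.09 in macrophage-like cells. As C1qa was a marker of the gate, the ratio does not settle this.

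**Figure D2:**
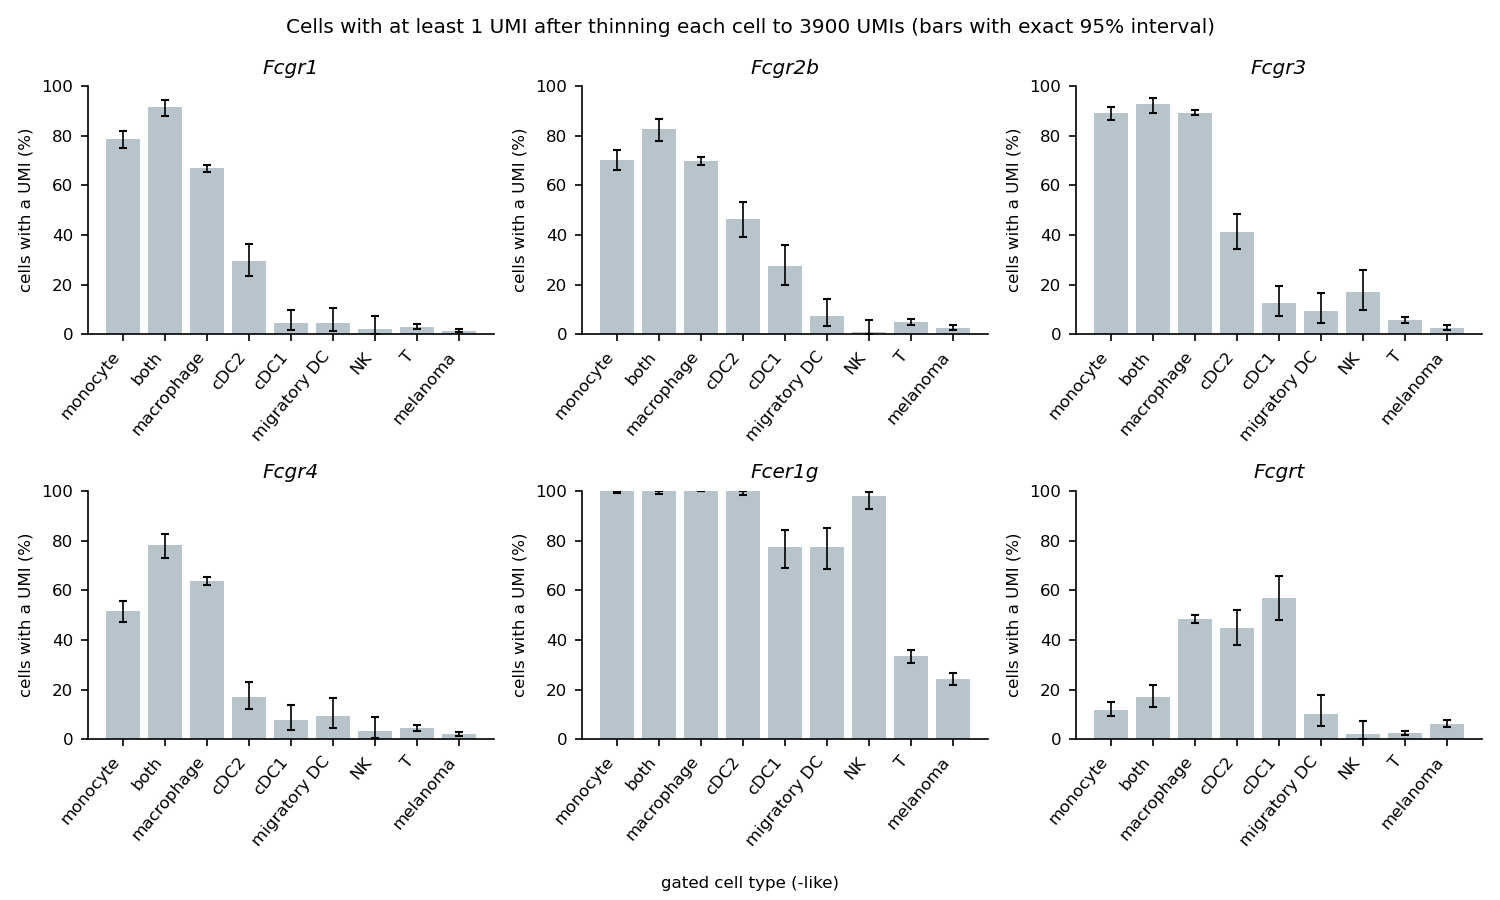
Share of cells (%) with at least 1 UMI of each gene by gated cell type, after each cell was thinned to 3900 UMIs. Bars are all 4 libraries together with exact binomial 95% intervals for counting error alone; Fcer1g reaches 100% of monocyte-like and macrophage-like cells, and Fcgr3 16.8% of NK-like against 5.71% of T-like cells.

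In NK-like cells 16.8% held an Fcgr3 UMI after thinning (exact binomial 95% interval 9.94% to 25.9%, median depth 5880 UMIs), against 30.5% before thinning. The T-like share was 5.71% (4.50% to 7.13%) and 11.5% before thinning. Fcgr1, Fcgr2b, Fcgr4 and Fcgrt were found in 2.11%, 1.05%, 3.16% and 2.11% of NK-like cells. Their T-like shares were 3.05%, 4.85%, 4.46% and 2.43%, so these shares did not rise above background. Per C1qa UMI the NK-like and T-like values were 0.292 and 0.260 (Fcgr1), 0.25 and 0.332 (Fcgr2b), 0.583 and 0.295 (Fcgr4) and 0.25 and 0.162 (Fcgrt). The NK-like ratios rest on 24 C1qa UMIs. In cDC1-like cells Fcgr2b was found in 27.3% (19.8% to 35.9%) and Fcgrt in 57.0% (48.0% to 65.7%), above the T-like shares, while Fcgr1 was in 4.69% (1.74% to 9.92%).

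Most macrophage-like cells held several Fcgr transcripts at once. After thinning, UMIs of all 4 Fcgr genes were found in 27.3%, 43.3%, 30.7% and 24.9% of the macrophage-like cells of S1, S2, S3 and S4. In cells with both programmes the share was 55.4%, 65.8%, 52.5% and 44.1%, above the macrophage-like share of the same library in each case. Monocyte-like cells gave 26.3%, 41.6%, 38.5% and 31.8%. Transcripts of the inhibitory and of all 3 activating receptors were thus found within single barcodes. Only 1.02% of macrophage-like cells had no UMI of any of the 4 genes.

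The macrophage-like class was not uniform in these genes, and 2 of its clusters stood out. Clusters were drawn without the 6 genes, so their levels describe the clusters and did not define them. Fcgrt was at 634, 898, 1086 and 1352 CPM in cluster 3 (led by Cd209f, Cbr2 and Folr2, which mark tissue-resident macrophages) in S1, S2, S3 and S4. The next cluster, 1, was at 161 ± 50.4 CPM, and the monocyte cluster 7 (Chil3 and Hp) at 31.8 ± 3.49 CPM. Every library of cluster 3 lay above every library of the other 7 monocyte and macrophage clusters. Cluster 3 also had the highest mean Fcgr2b level (708 ± 74.4 CPM) and a low Fcgr4 level (205 ± 72.4 CPM).

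Cluster 10 was led by Cd300e, a marker of non-classical monocytes, and by Lipg. No other gene of the non-classical monocyte list was among its leading genes, and 197 of its 208 cells were macrophage-like by the gate. Cluster 10 had the opposite make-up to cluster 3. Its Fcgr4 level was 1008, 1723, 1405 and 1461 CPM in S1, S2, S3 and S4, each above every value of the other 7 clusters. Its Fcgr2b level had a mean of 139 ± 70.7 CPM, the lowest of the 8, and its Fcgr3 level was 391 ± 43.3 CPM, where the other clusters had means from 664 to 876 CPM. Fcer1g was highest there as well, at 7863 ± 253 CPM, against means of 3745 to 6452 CPM elsewhere. Cluster 10 had 33, 117, 47 and 11 cells in S1, S2, S3 and S4, so the S4 value rests on few cells.

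**Figure D3:**
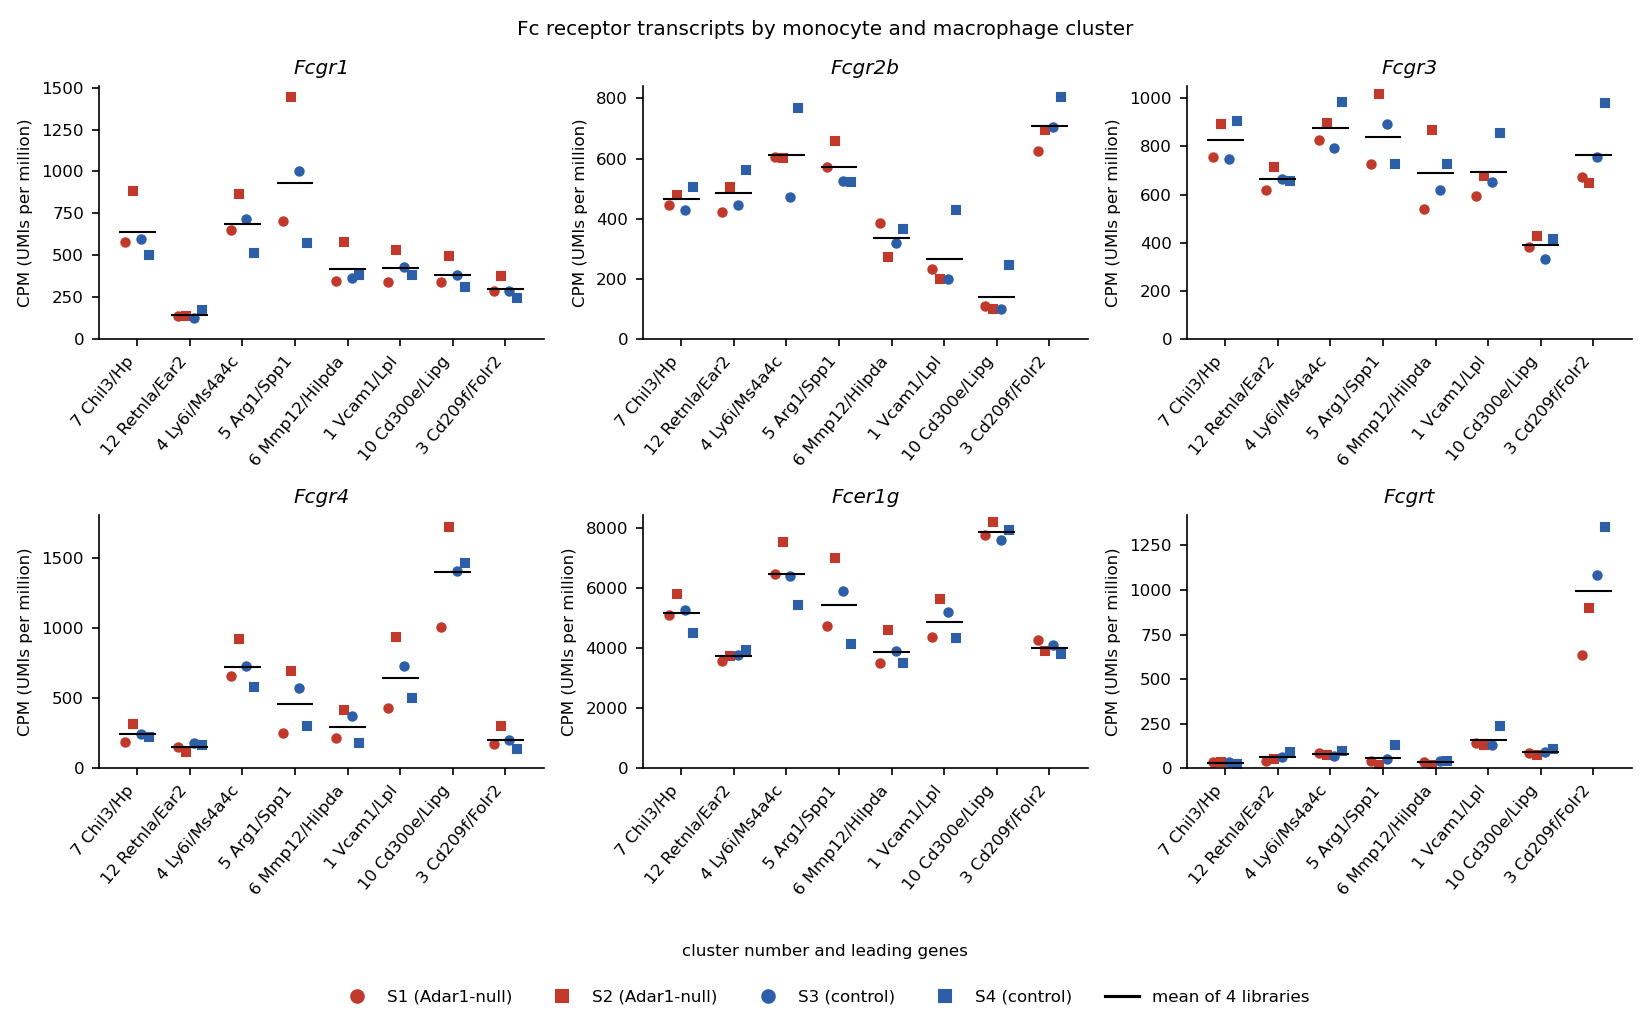
Level of each Fc receptor gene in the 8 monocyte and macrophage clusters, in CPM of the summed UMIs on a linear axis that differs between panels, with points for libraries (red Adar1-null, blue control) and lines for means. Fcgrt stands out in cluster 3 and Fcgr4 and Fcer1g in cluster 10, in all 4 libraries.

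Fcgr1 divided the clusters along another line. Its mean was 931 ± 386 CPM in cluster 5 (Arg1 and Spp1), 687 ± 146 CPM in cluster 4 and 639 ± 168 CPM in cluster 7. In clusters 1, 6 and 10 it was between 382 and 422 CPM, in cluster 3 298 ± 56.1 CPM, and in cluster 12 (Retnla and Ear2) 143 ± 20.9 CPM. Every library of cluster 12 lay below every library of the other 7 clusters. The highest Fcgr1 value was in S2 in 7 of the 8 clusters, and so was the highest Fcgr4 value, the exception being cluster 12 for both.

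As a share of Fcgr UMIs, Fcgr2b ran from 6.1 ± 2.8% in cluster 10 to 35.8 ± 1.2% in cluster 3. Fcgr4 ran the other way, at 60.2 ± 3.9% in cluster 10 and 10.5% in cluster 3. The libraries of cluster 3 gave Fcgr2b shares from 34.3% to 37.2% and those of cluster 10 from 3.7% to 10.1%. Clusters 12, 7, 5 and 4 had Fcgr2b shares of 33.4%, 21.6%, 21.2% and 21.2%, and cluster 1 had 13.2%. Fcgr3 took 30.3% to 46.0% in every cluster but cluster 10 (17.1%). UMIs count molecules caught at the 3′ end, so these shares are compared between clusters, not between receptors.

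**Figure D4:**
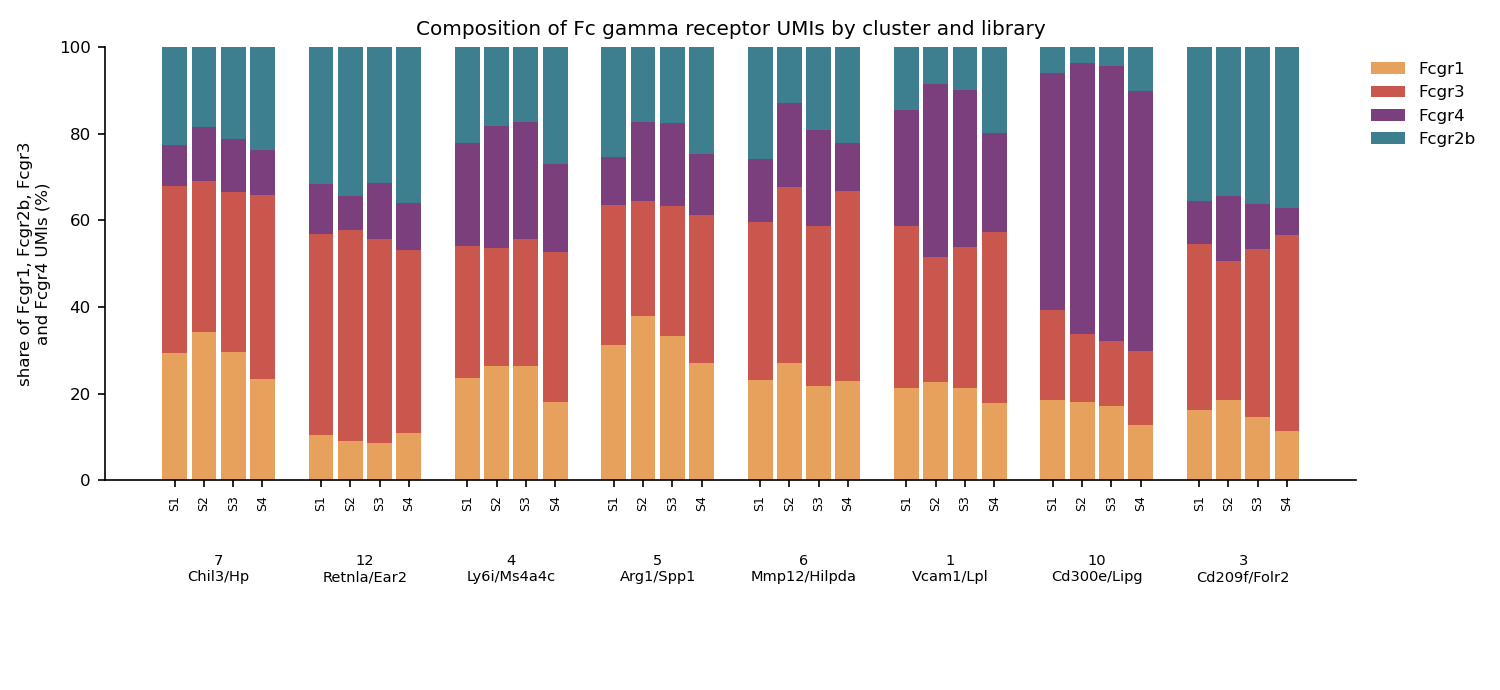
Share (%) of the UMIs of Fcgr1, Fcgr2b, Fcgr3 and Fcgr4 that each gene took, with a stacked bar for each library (S1 and S2 Adar1-null, S3 and S4 control) in each of 8 monocyte and macrophage clusters. The Fcgr2b part has a mean of 35.8% in cluster 3 and 6.1% in cluster 10, and the Fcgr4 part 60.2% in cluster 10.

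Adar1 loss in the tumour was then compared with control for each type. Within macrophage-like cells 0 of 6 members were called, and 0.0% of the 10594 genes tested were (edgeR; 509 genes, 4.8%, had an unadjusted p under 0.05, and DESeq2 called 14). Fcgrt had the largest estimate. Its 162 and 117 CPM in Adar1-null libraries lay below 250 and 617 CPM in control libraries, and the log2 change was -1.64 ± 0.47 (edgeR adjusted p = 0.858). Fcgrt was the only member of the 6 whose groups did not overlap in macrophage-like cells. Of all genes tested there, 18.3% were likewise lower in both Adar1-null than in both control libraries.

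The Fcgrt difference moved with the make-up of the macrophage-like class. Cluster 3, with its high Fcgrt, made up 11.2%, 4.43%, 18.9% and 46.1% of the macrophage-like cells of S1, S2, S3 and S4, and 741 of its 1014 cells came from S4. The summed level of 7 resident-type macrophage markers, all detected, was 693, 330, 931 and 1801 CPM. Without the cells of clusters 3 and 10, an alternative chosen after seeing the data, Fcgrt was at 114, 97.6, 107 and 169 CPM and its log2 change was -0.39 (adjusted p = 0.994). Without S4 the change in the whole class was -0.84, and without S3 it was -2.16. Within cluster 3 itself, where S2 had 26 cells, 634 and 898 CPM in Adar1-null libraries lay below 1086 and 1352 CPM in control libraries, with no test.

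None of the other 5 genes was called in macrophage-like cells. Fcgr4 was at 446 and 1108 CPM in Adar1-null libraries against 674 and 300 CPM in controls. Its change was 0.67 ± 0.56 on the log2 scale (adjusted p = 0.858), and without S2 its sign turned (-0.13). Cluster 10 made up 4.13%, 20.04%, 5.48% and 0.695% of the macrophage-like cells of S1, S2, S3 and S4, with S2 highest and S4 lowest as for Fcgr4. Without the cells of clusters 3 and 10, Fcgr4 was at 440, 938, 695 and 386 CPM, in that same order of libraries. Fcgr1 had a change of 0.35 ± 0.27, Fcer1g 0.32 ± 0.22, Fcgr2b -0.31 ± 0.26 and Fcgr3 -0.17 ± 0.17 (adjusted p = 0.858 to 0.876). Leaving out 1 library moved these values: without S2, Fcgr1 turned to -0.045 and Fcer1g was at 0.047, and without S4 Fcgr2b turned to 0.12. Fcgr2b was also at 0.12 without the cells of clusters 3 and 10, and Fcgr3 was at -0.0084. Haemoglobin and Alas2 transcripts of red cells, all 5 detected, summed to 0, 0.19, 2.91 and 362 CPM in the macrophage-like cells of S1, S2, S3 and S4, and their part in the results was not tested.

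**Figure D5:**
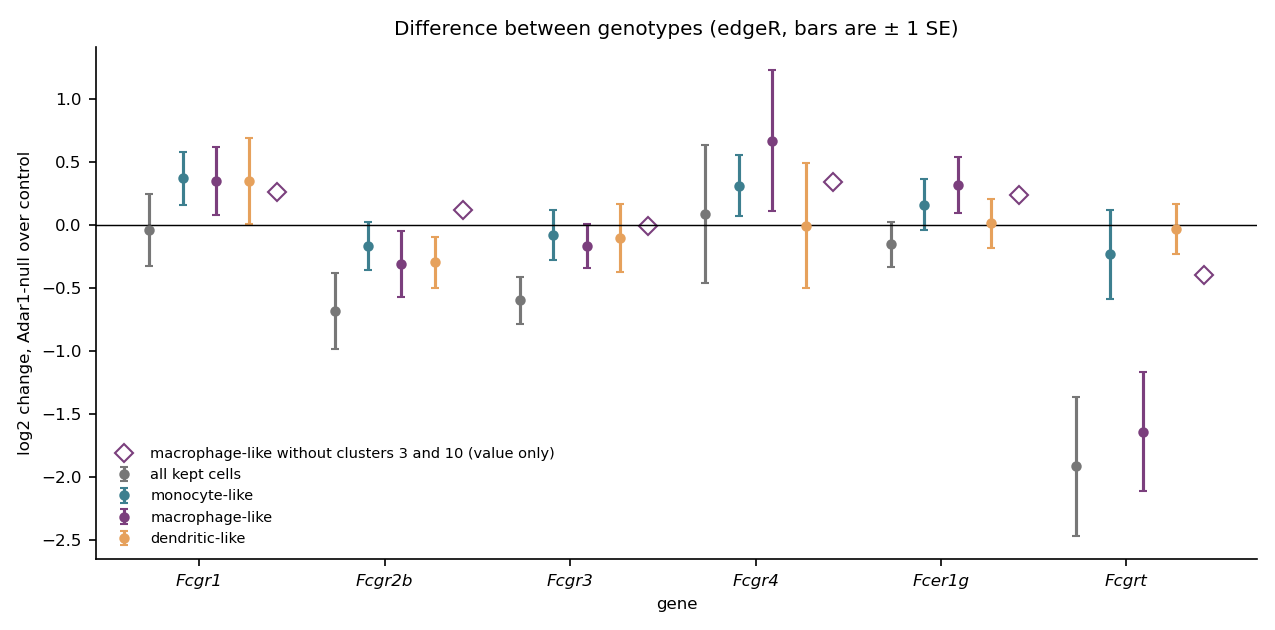
Log2 change of each Fc receptor gene, Adar1-null over control, in all kept cells and in monocyte-like, macrophage-like and dendritic-like cells. Points are edgeR estimates with bars of 1 standard error, and open diamonds give macrophage-like cells without clusters 3 and 10 as a value only; the Fcgrt estimate moves from -1.64 to -0.39 there.

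In monocyte-like cells 0 of 6 members were called (0.0% of 5279 genes by edgeR, with 269 genes or 5.1% at an unadjusted p under 0.05, and 0 by DESeq2). Log2 changes in monocyte-like cells lay between -0.23 ± 0.35 (Fcgrt) and 0.37 ± 0.21 (Fcgr1), with adjusted p of 0.952 to 0.994. Fcgr1 in monocyte-like cells was at 708 and 991 CPM in Adar1-null and 735 and 581 CPM in control libraries, which overlapped. The groups did not separate for any of the 6 genes, while they did for 32.8% of all genes tested. In cells with both programmes 0 of 6 were called (0.0224% of 4474 genes). There Fcgr3 (995 and 965 against 840 and 954 CPM) and Fcgrt (79.2 and 74.1 against 69.8 and 73.4 CPM) were higher in both Adar1-null libraries, as were 18.6% of all genes. Over all monocyte-like and macrophage-like cells together 0 of 6 were called (0.0% of 10783 genes, with 549 at an unadjusted p under 0.05), and DESeq2 called Fcgrt alone, 1 of 6, against 0.204% of genes.

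Dendritic-like cells gave 0 of 6 members called (0.046% of 6519 genes), and the groups separated for 0 of 6 against 35.1% of genes. The largest estimates were 0.35 ± 0.34 for Fcgr1 and -0.29 ± 0.20 for Fcgr2b (adjusted p = 0.960 and 0.933). Fcgrt was at 175, 190, 166 and 188 CPM in S1, S2, S3 and S4, within a narrow range (-0.03 ± 0.20, adjusted p = 0.992). NK-like cells numbered 10, 35, 37 and 13 in the 4 libraries, too few for a test between genotypes. Their Fcer1g level was 1053 and 1740 CPM in Adar1-null and 2016 and 2415 CPM in control libraries. The summed level of the 9 NK markers, all detected, moved in the same order, at 4898, 7172, 7824 and 10785 CPM in S1, S2, S3 and S4, and its part in the Fcer1g values was not tested.

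The difference in response between macrophage-like and monocyte-like cells was tested directly for each gene. It was called for 0 of 6 members (0.0107% of 9323 genes). Fcgrt had an interaction of -1.49 ± 0.38 (edgeR adjusted p = 0.779), which was -0.22 without the cells of clusters 3 and 10. Without S3 the Fcgrt interaction was -1.74 and that of Fcgr4 was 0.89.

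Over all kept cells, fewer cells of a type and less RNA per cell cannot be told apart. These sums also hold melanoma-like cells, with a median of 32860.5 UMIs against 8018 over all kept cells. Melanoma-like cells numbered 354 of 1939, 285 of 1936, 260 of 1945 and 313 of 2749 in S1, S2, S3 and S4. CPM of immune genes fall as tumour RNA rises in the sum, and its part in the differences was not tested. Here 0 of 6 members were called (0.0% of 13467 genes by edgeR, with 1225 genes or 9.1% at an unadjusted p under 0.05, and 93 by DESeq2). Fcgrt was at 61.3 and 49.2 CPM in Adar1-null and 110 and 286 CPM in control libraries (-1.91 ± 0.55, adjusted p = 0.543). Fcgr3 was at 243 and 282 against 321 and 436 CPM (-0.60 ± 0.19, adjusted p = 0.543), and Fcgr2b at 154.2 and 154.3 against 174 and 298 CPM (-0.68 ± 0.30, adjusted p = 0.571). These 3 members were lower in both Adar1-null than in both control libraries, as were 14.5% of all genes tested. Without S3, Fcgrt was at -2.45 and Fcgr2b at -1.03, and without S4 Fcgrt was at -1.04.

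The Fcgr2b share was lower on average in Adar1-null libraries in macrophage-like and monocyte-like cells and higher in cells with both programmes, in a design too small to pass a threshold of 0.05. In macrophage-like cells Fcgr2b made up 16.6 ± 5.21% of Fcgr UMIs in Adar1-null and 21.8 ± 8.35% in control libraries (SD, n = 2 each; exact two-sided permutation p = 0.667). In monocyte-like cells it made up 17.5 ± 1.12% and 20.8 ± 1.55% (exact two-sided permutation p = 0.333, the smallest that 2 libraries against 2 can give). The monocyte-like groups did not overlap, but their difference of -3.37 percentage points was -1.20 with the stricter gate, and the macrophage-like groups overlapped. In cells with both programmes the shares were 20.2 ± 3.95% and 19.3 ± 6.96% (exact two-sided permutation p = 1). The macrophage-like difference of -5.22 percentage points was 0.68 without S4.

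Genes of the Fc receptor pathway were counted in the same contrasts. From monocyte-like to macrophage-like cells 20.1% of all 7205 genes were called higher and 18.8% lower. Of the ITAM adaptors and receptors that pair with Fcer1g, 0 of 6 tested were called higher and 4 lower, with a median log2 change of -0.51 against 0.02 over all genes. Tyrobp, an adaptor with an ITAM like that of Fcer1g, was at -0.56 ± 0.12 (adjusted p = 0.00046), and Clec4e, a receptor for mycobacterial glycolipid that signals through Fcer1g, at -2.64 ± 0.18 (adjusted p = 6.74e-10). Clec4n and Clec4d, lectin receptors that signal through the same chain, were at -0.89 and -0.46. Fcer1g itself was not called in this contrast.

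In the same contrast, against the 20.1% higher and 18.8% lower of all genes, signalling genes were counted next. Of 15 tested activating signalling genes, 1 was called higher (Blnk, an adaptor below Syk, 2.61 ± 0.27) and 6 lower, among them the kinases Fgr (-2.11), Prkcd (-1.06) and the phospholipase Plcg2 (-0.95). Their median was -0.20. Of 7 inhibitory genes 0 were called higher and 4 lower, with a median of -0.44: the ITIM receptors Lilrb4a (-0.93) and Pirb (-0.88), the adaptor Dok3 (-0.50) and the phosphatase Ptpn6 (-0.44). The NADPH oxidase, which makes superoxide after Fc receptor engagement, had the subunits Ncf4 (-1.33) and Cybb (-0.70) called lower. B2m, the partner of Fcgrt, was at 0.15 ± 0.13 (adjusted p = 0.387) while Fcgrt was 6.62-fold higher. Of 9 interferon-gamma responsive genes, 0 were called higher and 6 lower in macrophage-like cells (18.8% of all genes were lower), led by Cxcl10 (-2.14), Gbp2 (-1.55), Ciita (-1.32) and Irf1 (-1.03).

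In NK-like against macrophage-like cells the partners of Fcer1g split. Cd247, the T and NK cell signalling chain, was higher (5.88), while Clec4d (-4.35) and Clec4n (-4.31) were lower. In all, 2 of 6 tested were higher and 4 lower, against 18.5% and 25.4% of all genes. One of those 2, Ncr1, an NK receptor that signals through Fcer1g and Cd247, was among the genes of the NK gate, which fixed its direction. From macrophage-like to dendritic-like cells 0 of 6 of these genes were higher and 3 lower, and of the activating signalling genes 3 of 15 were higher and 7 lower. Of all genes 24.2% were higher and 24.0% lower there. Of the other Fc receptors listed, only Fcrls, an Fc receptor-like scavenger gene, passed the filter of these contrasts. It was at 39.4, 11.6, 34.9 and 36.1 CPM in the macrophage-like cells of S1, S2, S3 and S4 and at 0, 1.66, 0 and 0 CPM in their monocyte-like cells. It passed the filter through the types where it is present, so its call against monocyte-like cells is not counted as a result.

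Between genotypes, 0 genes of these lists were called in macrophage-like cells, monocyte-like cells or all kept cells (melanoma-like cells included) by edgeR. In macrophage-like cells 14 of 16 activating signalling genes had a log2 change above 0 (median 0.21 against 0.00 over all genes), as did 8 of 9 interferon-gamma responsive genes (median 0.51). The activating signalling genes did not keep that direction elsewhere. In monocyte-like cells 7 of 14 were above 0 (median 0.02), in dendritic-like cells 5 of 15 (median -0.12) and in all kept cells 3 of 16 (median -0.14). Of the interferon-gamma responsive genes, 8 of 9 were above 0 in monocyte-like cells, 6 of 8 in dendritic-like cells and 9 of 10 in all kept cells (medians 0.32, 0.47 and 0.29). Cxcl10, a chemokine of that list, was at 514, 678, 313 and 201 CPM in the macrophage-like cells of S1, S2, S3 and S4 (1.21 ± 0.26, edgeR adjusted p = 0.858). Both Adar1-null libraries lay above both controls, as they did for 16.9% of all genes tested in macrophage-like cells. For Fcgr1 the groups overlapped (394, 642, 460 and 350 CPM).

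Genes with the most similar pattern to each member were found over 36 sums (9 types in 4 libraries), by Pearson correlation of log2 CPM over 7215 genes. The points share libraries and depth, so the values are descriptions. Fcgr1 was most like Igsf6 (0.95), Gm5150 (0.95) and Ctsc (0.94), Fcgr2b like Pid1, Cfp and AI607873 (all 0.96), and Fcgr3 like Lilrb4a (0.95), Emilin2 (0.94) and Cyp4f18 (0.92). Fcgr4 was most like Lst1 (0.96), Tgm2 (0.95) and Ifi204 (0.95), and Fcer1g like Tyrobp (0.95), Metrnl (0.94) and Lilrb4a (0.93). For Fcgrt the highest values were lower, with Gsn (0.87), Fgd2 (0.86) and Shtn1 (0.85). Among the members themselves, Fcgr1 and Fcgr4 were at 0.92 and Fcgr3 and Fcer1g at 0.91, and Fcgrt was at 0.36 to 0.76 with the others.

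Within the 8 monocyte and macrophage clusters the members divided further. These values rest on 27 sums, which do not cover every library of every cluster. Fcgr4 and Fcer1g were at 0.83 and Fcgr2b and Fcgr3 at 0.82, while Fcgr4 and Fcgr2b were at -0.62 and Fcgr1 and Fcgrt at -0.63. The clusters were chosen for this after seeing the data, and they share the libraries.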

How the data were processed

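The data are droplet-based 10x 3′ v2 RNA sequencing of 4 libraries of CD45+ tumour cells. The authors deposited whole-number UMI counts per gene and barcode, with no normalization, in 1 table for all libraries. The submitters' processing notes name Cell Ranger, Seurat 2.2.0 and mm10 as build. Cell Ranger's version, the annotation and the cell filters: not given in the sources used here. The lowest total of a barcode was 3961 to 4373 UMIs by library, so shallow barcodes are not among those analysed here. The barcode names give the group of a library but not its replicate number. The 6 genes and all lists were chosen with earlier results of these data known.

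Barcodes under 500 genes or above 10% mitochondrial UMIs were dropped (161). Scrublet (scanpy 1.11.5) scored doublets. Its automatic thresholds marked 4 to 14 cells a library, so 1 limit of 0.1 for all libraries, chosen with the scores in view, was used and removed 108 cells, 1.24%. Types were gated per cell on the mean of ln(1 + UMIs per 10000) over marker lists, 4 of whose symbols were missing. Leiden clusters (leidenalg 0.10.2; 2000 variable genes, 30 components, 20 neighbours, resolution 1) left out the 6 genes and the pathway lists. A class name carries "-like" because it rests on markers alone. Cluster 4, whose leading genes include the monocyte markers Ms4a4c and Ly6c2, was 56.2% macrophage-like by the gate, so levels are also given by cluster number. No correction for free RNA was made.

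UMI counts were summed per library and type and tested with edgeR 4.0.16 in R 4.3.3 (TMM, filterByExpr, robust quasi-likelihood, Benjamini-Hochberg over all genes tested, called at 0.05), with no covariate between genotypes and with library as a covariate between types. Standard errors are the log2 change over the square root of F. In the main setting a type with fewer than 50 cells in a library was not tested between genotypes. The alternatives had no such limit. With the stricter gate S4 had 49 monocyte-like cells, and cells with both programmes numbered 14 to 33 a library. The scripts were tested on simulated data. CPM are UMIs per 1000000 UMIs of the sum. Members were always named; of each other list the members called, at most 4 by size of change, or else the 2 with the lowest p; for likeness the top 3. Alternatives were DESeq2 1.42.0, library totals without TMM, no filter, each library left out, clusters as types, a stricter gate, no doublet removal and equal numbers of cells. Some items of the lists and motifs are not reported here.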

Additional observations from a re-analysis of the deposited data

How the results depend on the processing

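No paired analysis was possible because the library names in the files carry no replicate number. Over all alternatives, 281 member values between genotypes kept direction and call, 41 turned in sign and 8 gained a call. Between types 416 kept them, 11 turned, 3 gained and 2 lost a call. The causes were not tested unless stated. All values here are log2 changes unless named otherwise.

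Between NK-like and dendritic-like cells Fcer1g was at 0.018 with DESeq2, 0.17 with library totals only, 0.25 with the stricter gate, 0.013 without doublet removal and 0.0030 without the cells of clusters 3 and 10. Fcgrt in NK-like against monocyte-like cells gained a call with DESeq2 (-2.23) and without clusters 3 and 10 (-2.17). Between macrophage-like and monocyte-like cells Fcer1g was at 0.0032 with clusters in place of the gate, and Fcgrt between dendritic-like and macrophage-like cells was at 0.60 without clusters 3 and 10. Between genotypes in dendritic-like cells, Fcgr4 was at 0.011 with DESeq2, 0.071 with library totals, 0.015 with no filter and 0.0030 without doublet removal. Fcgrt was at 0.045 with library totals and 0.084 with the stricter gate, and Fcer1g at -0.0054 with equal numbers of cells. In monocyte-like cells the stricter gate gave 0.18 for Fcgr2b, 0.099 for Fcgr3 and 0.039 for Fcgrt, and clusters in place of the gate gave 0.15 for Fcgrt. Fcgr1 in all kept cells was at 0.026 with library totals. Without clusters 3 and 10, Fcgr2b was at 0.12 in macrophage-like cells, and the interactions of Fcgr2b and Fcgr3 were 0.28 and 0.041. The Fcgr2b share in monocyte-like cells differed by -1.20 percentage points with the stricter gate.

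Over monocyte-like and macrophage-like cells with DESeq2, 1 member was called between genotypes, against 0.204% of genes. With no filter, Fcgrt (-1.65) and Fcgr4 (0.66) were called in macrophage-like cells, and Fcgrt for the interaction. The share of all genes called with no filter is not given here, so these calls are not read as results about the members. With 1 library left out, the lone library of a group is assumed to vary like the others. Calls of members in those fits, which were most frequent without S3, are therefore not counted as results. With all settings, genes called ran from 0 to 140 in all kept cells, 0 to 472 in macrophage-like, 0 to 233 in monocyte-like, 0 to 89 in dendritic-like cells, 0 to 176 in cells with both programmes, 0 to 35 over the monocyte and macrophage classes and 0 to 122 for the interaction. Between types they ran from 2053 to 3284 (macrophage-like over monocyte-like), 2016 to 2993 (dendritic-like over monocyte-like), 2179 to 3622 (NK-like over monocyte-like), 2780 to 4478 (dendritic-like over macrophage-like), 2216 to 3895 (NK-like over macrophage-like) and 1562 to 2899 (NK-like over dendritic-like).

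Leaving out each library gave these genotype ranges in dendritic-like cells: Fcer1g -0.23 to 0.23, Fcgr1 -0.12 to 0.85, Fcgr3 -0.52 to 0.25, Fcgr4 -1.01 to 0.63 and Fcgrt -0.15 to 0.11. In all kept cells Fcer1g ran from -0.38 to 0.049, Fcgr1 from -0.44 to 0.28 and Fcgr4 from -0.60 to 0.62. In macrophage-like cells Fcgr1 ran from -0.045 to 0.65, Fcgr2b from -0.64 to 0.12 and Fcgr4 from -0.13 to 1.35, and in monocyte-like cells Fcgr3 from -0.21 to 0.081, Fcgr4 from -0.13 to 0.62 and Fcgrt from -0.76 to 0.20. The interaction ran from -0.15 to 0.011 for Fcgr1, -0.43 to 0.14 for Fcgr2b and -0.11 to 0.89 for Fcgr4. Between types, Fcer1g in NK-like over dendritic-like cells ran from -0.13 to 0.15, Fcgr2b in macrophage-like over monocyte-like cells from -0.22 to 0.014, and Fcgrt in dendritic-like over macrophage-like cells from -0.73 to 0.047. The Fcgr2b share differed by -10.7 to 2.44 percentage points in dendritic-like cells, -3.99 to 5.85 in cells with both programmes, -11.1 to 0.68 in macrophage-like cells, -10.1 to 1.15 over the monocyte and macrophage classes and -9.40 to 1.16 in all kept cells.

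The precision is limited by 2 libraries a group and, in NK-like cells, by 10 to 37 cells a library. Cells with both programmes could not be defined by clusters, so that alternative gave no value for them.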
